A study of Mus musculus with 8 samples.

Results

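The 10 elastic fiber genes *Eln*, *Fbn1*, *Fbn2*, *Mfap2*, *Mfap5*, *Mfap4*, *Fbln1*, *Fbln2*, *Fbln5* and *Efemp2* were measured by RNA-Seq in cultured VSMCs of WT and *Hint1*-/- mice. They were taken by gene symbol from a list of elastin, fibrillin, fibulin and microfibril-associated genes of the aortic media, by a rule that holds no measured value, although earlier results of these data were known when the list was made. All 10 were present among the 18533 gene symbols of the count tables, and 9 of them passed edgeR's filter on low counts. The cells were MASMCs, primary smooth muscle cells isolated from the aortas of male mice aged 4 to 6 weeks. WT MASMCs (n = 4) and MASMCs of mice lacking *Hint1* (n = 4) had all received PDGF-BB, a growth factor that drives VSMCs out of the contractile state, at 20 ng/mL for 24 hours. No sample without PDGF-BB was analysed here, so each value describes the genotypes under PDGF-BB only. The *Hint1*-/- mice were a line apart from the study's VSMC-specific knockout, so the loss was not limited to VSMCs, and the cells had been digested from the aorta and grown in serum. The comparison asks which transcripts differ in level without *Hint1*, a histidine triad nucleotide-binding protein, in stimulated VSMCs.

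Elastic fibers give the aortic wall its recoil. Each has a core of cross-linked elastin laid down on a scaffold of microfibrils, which are polymers of fibrillin bearing small glycoproteins such as MAGP-1, MAGP-2 and MFAP4. Fibulins sit between core and scaffold, and fibulin-4 and fibulin-5 bring tropoelastin together with the lysyl oxidases that cross-link it. VSMCs make most of the elastin of the aortic media, chiefly before adulthood.

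The depth of the samples ran from 20778077 to 20888041 estimated counts. Levels below are in CPM, edgeR's unit of counts scaled to the library's size, given as the mean ± SD of the 4 samples of a genotype. *Hint1* itself had 2272, 2336, 2364 and 2301 counts in the WT samples and 713, 748, 778 and 715 counts in the *Hint1*-/- samples, which do not overlap. Counts per gene do not show from which exons the remaining *Hint1* reads came. The labels do not say whether the samples came from separate mice, so all p-values below measure the spread between the deposited samples. Marker lists for the cell types that such a culture could hold were summed in CPM. Their genes are called higher or lower at an adjusted p under 0.05 by edgeR's quasi-likelihood test. Of all 13535 tested genes, 11.2% were called higher and 10.2% lower in this way. Smooth muscle markers summed to 1352 to 1469 CPM in WT samples against 1116 to 1207 CPM in *Hint1*-/- samples. Out of 7 tested genes, *Acta2*, *Cnn1*, *Myh11*, *Lmod1* and *Des* were lower, *Smtn* was higher, and *Tagln* did not pass the test. By q-PCR in MASMCs, the study reported *Tagln*, *Acta2* and *Cnn1* as markedly increased without *Hint1*. For *Acta2* and *Cnn1*, that is the opposite direction to the values here, and the cause was not tested. Markers of macrophages reached 2262 to 2620 CPM in WT samples against 1848 to 1968 CPM in *Hint1*-/- samples, with 6 of 7 tested genes lower. Fibroblast markers summed to 1730 to 1801 CPM and 2619 to 2753 CPM, with *Dcn*, *Lum* and *Pdgfra* higher, *Dpt* and *Col14a1* lower, and 3 of 8 not past the test. The median log2 fold change of these 8 markers was −0.06. Most of the rise in their sum came from *Dcn* alone, whose mean was 1111 CPM with *Hint1* and 1974 CPM without it. Markers of Schwann and neural crest cells summed to 61.0 to 65.8 CPM against 25.0 to 27.4 CPM in the same order, with 5 of 7 lower. Chondrocyte markers summed to 21.3 to 23.9 CPM and 50.1 to 52.5 CPM, with *Col2a1*, *Sox9* and *Comp* higher and *Acan* lower. Endothelial markers stayed between 6.43 and 9.46 CPM in all samples, with 0 of 6 tested genes past an adjusted p of 0.05. Cardiac muscle markers summed to 1.29 to 2.16 CPM and 4.72 to 8.31 CPM, and *Myl7* had 0 counts in every WT sample. In bulk samples, fewer cells of a type and less RNA per cell cannot be told apart. The part of these cell type markers in the elastic fiber results was not tested.

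Of the 9 elastic fiber genes tested, 4 had an adjusted p under 0.05 between the genotypes by edgeR's quasi-likelihood test, a criterion that 21.5% of all 13535 tested genes met. *Mfap4*, *Mfap5* and *Fbln2* were lower and *Fbln1* was higher in *Hint1*-/- MASMCs. Across all tested genes, 10.2% were called lower and 11.2% higher. *Mfap4*, which was lower, alone also passed a fold change of 1.5, the study's second threshold. Both thresholds were passed by 2.83% of all genes, with 1.49% lower and 1.34% higher. The same 4 genes were those in which every *Hint1*-/- sample lay on one side of every WT sample, as in 23.0% of all tested genes, with 11.9% higher and the others lower. The median log2 fold change of the 9 genes was −0.01, beside 0.00 over all genes, and the median absolute log2 fold change was 0.20 against 0.09. Elastin, fibrillin-1, MAGP-1, fibulin-4 and fibulin-5 did not pass the test, and fibrillin-2 had too few counts to be tested.

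**Figure D1:**
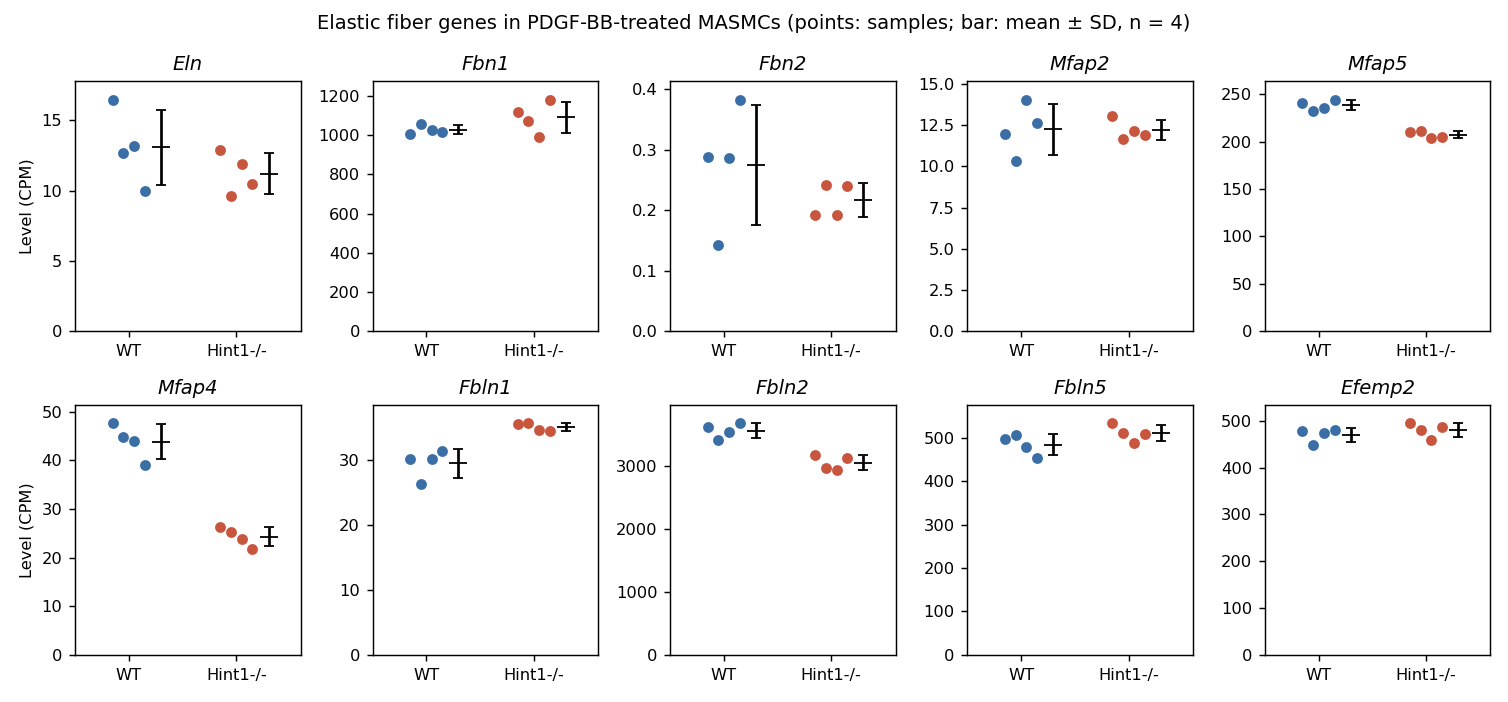
Level of each elastic fiber gene in CPM (y axis, starting at 0) in 4 WT and 4 *Hint1*-/- samples, with points for samples and the mean ± SD beside them. The genotypes are separate for *Mfap4*, *Mfap5* and *Fbln2*, which were lower in *Hint1*-/- samples, and for *Fbln1*, which was higher, and they overlap for the other 6 genes.

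*Eln* encodes tropoelastin, the monomer of the elastic core, and lies on chromosome 5 (chr5:134702593-134747323 of mm10, minus strand). Its counts were 344, 267, 276 and 209 in WT replicates 1 to 4 and 267, 199, 248 and 218 in *Hint1*-/- replicates 1 to 4. The highest sample was a WT sample and the lowest a *Hint1*-/- sample, and the genotypes overlapped. Elastin mRNA averaged 13.1 ± 2.66 CPM in the WT group and 11.2 ± 1.45 CPM in the *Hint1*-/- group. The log2 fold change of −0.22 (SE 0.117) did not pass edgeR's test (adjusted p = 0.196), and its 95% interval ran from −0.45 to 0.01. WT replicate 4 held the lowest WT value, and without it the log2 fold change was −0.33 with an adjusted p of 0.026. Without WT replicate 1, the highest of all 8 samples, it was −0.09 with an adjusted p of 0.609. Annotated genes on the opposite strand, not analysed here, overlap exons of *Eln* and also of *Fbn1* and *Fbn2*. By mean count, *Eln* ranked 9181 among the 18533 gene symbols.

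The fibrillins form the backbone of microfibrils. *Fbn1*, the main fibrillin of the postnatal aorta and the gene mutated in Marfan syndrome (chr2:125300594-125507993, minus strand), had 20993, 22241, 21491 and 21245 counts in WT and 23167, 22236, 20664 and 24558 counts in *Hint1*-/- samples. The *Hint1*-/- samples held both the highest and the lowest value, and the SD was 79.3 CPM in *Hint1*-/- against 22.8 CPM in WT samples. The mean level was 1027 CPM in the WT and 1092 CPM in the *Hint1*-/- group, and the log2 fold change of 0.09 (SE 0.0427) did not pass the test (adjusted p = 0.164). Without *Hint1*-/- replicate 3, the lowest of all 8 samples, the log2 fold change was 0.13 and passed the test (adjusted p = 0.0212). Without *Hint1*-/- replicate 4, the highest, it was 0.05 and did not (adjusted p = 0.479). *Fbn2*, a fibrillin made mainly during development, had 6, 3, 6 and 8 counts in WT and 4, 5, 4 and 5 counts in *Hint1*-/- samples. These are too few for any but a very large difference to be detectable, and in a fit without the filter the log2 fold change of *Fbn2* was −0.33 with an SE of 0.474 (adjusted p = 0.708). Per 10000 *Fbn1* counts, there were 2.66 ± 0.961 *Fbn2* counts in WT and 1.97 ± 0.226 in *Hint1*-/- samples (mean ± SD, n = 4), so that nearly all fibrillin mRNA was *Fbn1* in both genotypes.

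Of the 2 small microfibril-associated glycoproteins that bind fibrillin, 1 passed the test. *Mfap2*, which encodes MAGP-1 (chr4:141010418-141015984, plus strand), had 249, 217, 294 and 264 counts in WT and 271, 241, 253 and 247 counts in *Hint1*-/- samples. All *Hint1*-/- samples lay within the WT range. The level was 12.2 CPM in both genotypes, with an SD of 1.54 CPM in WT samples against 0.621 CPM in *Hint1*-/- samples, and the log2 fold change of −0.01 had a 95% interval from −0.17 to 0.15 (adjusted p = 0.972). *Mfap5*, which encodes MAGP-2, an RGD-bearing relative of MAGP-1 (chr6:122505845-122529290, plus strand), had 5030, 4887, 4938 and 5105 counts in WT and 4363, 4375, 4243 and 4248 counts in *Hint1*-/- samples. Every *Hint1*-/- sample was below every WT sample, and the spread within each genotype was small. It fell from 239 ± 5.22 CPM in WT to 208 ± 3.86 CPM, or 87.0%, in *Hint1*-/- samples. On the log2 scale this was −0.20 with an SE of 0.0313 (adjusted p = 0.000109). The ratio of *Mfap5* to *Mfap2* counts was 19.7 ± 2.37 in WT and 17.1 ± 0.861 in *Hint1*-/- samples, with ranges of 16.8 to 22.5 and 16.1 to 18.2 that overlapped.

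*Mfap4* showed the largest difference among the members. It encodes a fibrinogen-domain glycoprotein that binds fibrillin, tropoelastin and RGD-recognizing integrins, and lies at chr11:61485431-61488900 on the plus strand. Its counts were 993, 939, 918 and 814 in WT and 546, 522, 495 and 454 in *Hint1*-/- samples. The lowest WT sample was well above the highest *Hint1*-/- sample. *Mfap4* mRNA fell from 43.8 ± 3.58 CPM in WT to 24.3 ± 1.93 CPM, or 55.5%, in *Hint1*-/- samples. Its log2 fold change of −0.85 had an SE of 0.0625, and edgeR gave it an adjusted p of 1.14e-08. *Mfap4* passed both thresholds whichever sample was left out, by DESeq2 (2.33% of all genes) and by limma-voom (2.91% of all genes), and also when glmTreat tested the difference against a fold of 1.5 itself.

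*Mfap4* shares chromosome 11 with *Hint1*, at a distance of 6.61 Mb. Within 10 Mb of *Hint1*, 7 of 180 tested genes passed both thresholds (3.89%), against 2.80% of the 12944 other genes with a position. *Mfap4* is 1 of the 7, and without it 6 of 179 passed (3.35%). Around *Mfap4* itself, 1 of the 28 other tested genes within 1 Mb passed both thresholds, *Aldh3a1*, and 4 passed the adjusted p alone. The 3′ end of *Mfap4* overlaps that of *Mapk7* on the opposite strand by 89 bases. *Mapk7* had 700 to 750 counts in WT and 693 to 764 counts in *Hint1*-/- samples, and its log2 fold change was 0.03 (adjusted p = 0.708). The sources used here do not say whether counting used strand, so reads from the shared bases could be assigned to either gene.

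The fibulins are calcium-binding glycoproteins that bridge elastin, microfibrils and the basement membrane. *Fbln1*, which encodes a fibulin found within the elastic core and in the matrix around VSMCs (chr15:85205949-85286535, plus strand), was the member that rose. It had 631, 553, 632 and 655 counts in WT and 737, 739, 722 and 717 counts in *Hint1*-/- samples. The *Hint1*-/- samples were all higher and closer together than the WT samples. *Fbln1* mRNA rose from 29.5 ± 2.20 CPM in WT to 35.1 ± 0.590 CPM, or 119%, in *Hint1*-/- samples. The difference was 0.25 on the log2 scale with an SE of 0.0512 (adjusted p = 0.00155).

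The 250 bases before the start of *Fbln1* are shown because it was the only member called higher. Among the 6 members for which a RefSeq promoter window was searched, it was also the only one with an E-box. *Mfap4* and *Mfap5* had no window, so of the members called lower only *Fbln2* was searched. A link between motif and direction was not tested. HINT1 is known to bind MITF and USF2, basic helix-loop-helix factors that recognize E-boxes, and the study examined an AP-2 factor. The windows were searched on both strands for the E-box CACGTG, the AP-2 motif GCCNNNGGC, the AP-1 motif TGANTCA, the GC box GGGCGG and the CArG box of serum response factor. The stretch below is chr15:85205699-85205948 of GRCm38.p6 on the plus strand, from RefSeq, with the AP-2 motif and then the E-box in capitals.
*Fbln1* promoter: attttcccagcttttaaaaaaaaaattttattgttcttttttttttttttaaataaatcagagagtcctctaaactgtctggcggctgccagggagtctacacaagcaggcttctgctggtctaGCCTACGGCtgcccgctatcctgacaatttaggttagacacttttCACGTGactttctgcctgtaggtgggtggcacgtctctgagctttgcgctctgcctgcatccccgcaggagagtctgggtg
The AP-2 motif lies 126 to 118 bases and the E-box 81 to 76 bases before the start. A second *Fbln1* start in RefSeq's table lies downstream, and its window holds the same E-box and AP-2 letters farther from that start, with a GC box besides. Of all 32851 promoter windows of this length, 6.02% held the E-box and 13.7% the AP-2 motif. Among the other members with a window, the AP-2 motif was present for *Efemp2*, and GC boxes, held by 32.7% of all windows searched, for *Fbn1*, *Fbln2*, *Fbln5*, *Efemp2* and *Mfap2*. For *Fbln5* and *Mfap2*, the GC boxes lay only before a start that was not matched in the gene's GENCODE transcripts. The window before their matched start held none of the motifs. The AP-1 motif (6.75% of all windows) and the CArG box (1.47%) were in none of these members' windows. A match is a description of the letters only, and the presence of a factor was not tested.

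*Fbln2*, a fibulin that binds fibrillin-1 and perlecan and is abundant in the outflow tract and great vessels (chr6:91212455-91272540, plus strand), was the most abundant member. Its counts were 75405, 71567, 74032 and 76710 in WT and 65808, 61448, 61119 and 64784 in *Hint1*-/- samples, with no overlap. *Fbln2* mRNA fell from 3559 ± 114 CPM in WT to 3049 ± 114 CPM, or 85.7%, in *Hint1*-/- samples. Its log2 fold change of −0.22 (SE 0.0357) passed the test with an adjusted p of 0.000147. That of *Eln* had the same size with an SE of 0.117 and did not. *Fbln2* had non-whole estimated counts in 3 samples, and *Mfap5* and *Fbn2* each had them in 2.

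Neither of the fibulins needed for elastic fiber assembly passed the test. *Fbln5*, whose product tethers tropoelastin to integrins and microfibrils (chr12:101746565-101819055, minus strand), had 10383, 10625, 10019 and 9442 counts in WT and 11060, 10587, 10173 and 10569 counts in *Hint1*-/- samples. The highest sample was a *Hint1*-/- sample and the lowest a WT sample, but the ranges overlapped. Between the means of 484 and 511 CPM, the log2 fold change of *Fbln5* was 0.08 (adjusted p = 0.164), with a 95% interval from 0.00 to 0.15. *Efemp2* encodes fibulin-4, which recruits lysyl oxidase to tropoelastin (chr19:5473954-5482517, plus strand). It had 9961, 9413, 9907 and 10012 counts in WT and 10259, 9956, 9553 and 10128 counts in *Hint1*-/- samples, which overlapped widely. Between the means of 470 and 481 CPM, the log2 fold change of *Efemp2* was 0.03 (adjusted p = 0.548), with a 95% interval from −0.03 to 0.10. An exon of *Efemp2* overlaps one of *Mus81* on the opposite strand, and *Mus81* had 253 to 310 counts in WT and 253 to 294 counts in *Hint1*-/- samples.

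Levels of different genes were compared as CPM per kb of the longest annotated transcript. *Fbln2* led in WT MASMCs with 744 CPM per kb, followed by *Efemp2* with 178, *Mfap5* with 95.8, *Fbn1* with 85.8 and *Fbln5* with 83.0 CPM per kb. *Fbn1* and *Fbln5* did not differ beyond their spread, while the other neighbors in this order had separate ranges. Far lower levels followed for *Mfap4* with 24.7, *Mfap2* with 11.4, *Fbln1* with 8.07 and *Eln* with 3.40 CPM per kb, and *Fbn2* closed the order with 0.0249 CPM per kb. The core protein of the elastic fiber was represented by fewer transcripts than its scaffold and assembly proteins, *Fbn2* apart. In *Hint1*-/- MASMCs, *Mfap5* at 83.3 CPM per kb overlapped with *Fbln5* at 87.6, and *Fbln5* in turn with *Fbn1* at 91.2 CPM per kb, so that *Mfap5* moved from the third to the fifth place and *Fbn1* and *Fbln5* each moved up. By the length of the union of annotated exons, *Mfap5* held the fifth place in both genotypes. The other 7 members kept their place, *Mfap4* at 13.7 CPM per kb included.

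**Figure D2:**
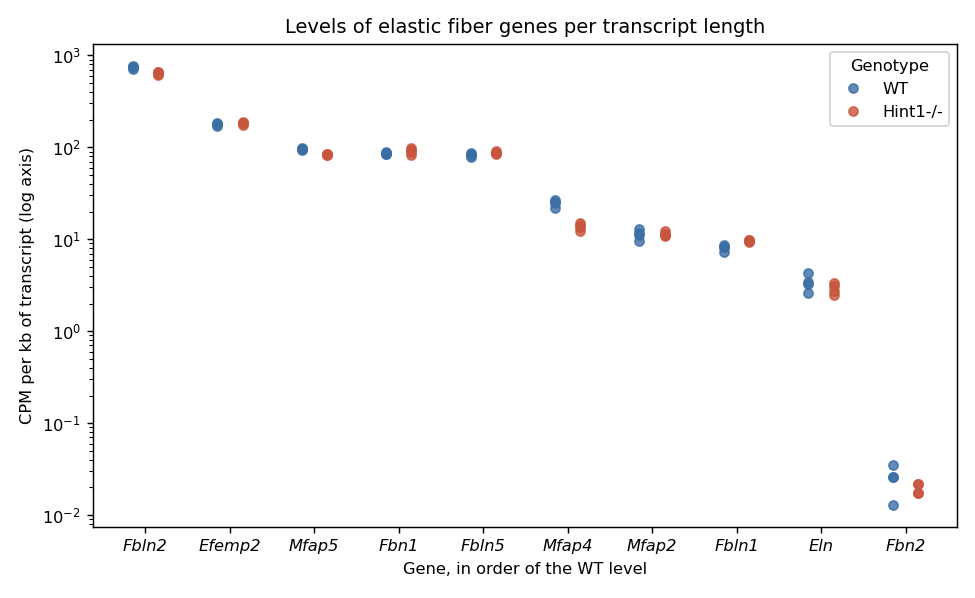
Level of the 10 elastic fiber genes in CPM per kb of transcript (y axis, log scale) in each WT and *Hint1*-/- sample, ordered by the WT mean. Levels run from *Fbln2* at 744 CPM per kb to *Fbn2* at 0.0249 CPM per kb in WT, and *Eln* lies below every other member but *Fbn2*.

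The 10 genes together took 0.590 ± 0.00810% of all counts in WT samples and 0.540 ± 0.0201% in *Hint1*-/- samples (mean ± SD, n = 4). The ranges, 0.580% to 0.599% and 0.517% to 0.558%, did not overlap. *Fbln2* held 60.5 ± 0.975% of the members' counts in WT and 56.2 ± 0.540% in *Hint1*-/- samples. Without *Fbln2*, the other 9 genes took 0.233 ± 0.00263% in WT and 0.236 ± 0.0100% in *Hint1*-/- samples, and these ranges overlapped.

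A wider list held 62 genes in 11 groups, of which 61 were in the count tables and 54 were tested. Of these groups, 10 were drawn up around the making, binding and breakdown of elastic fibers, and the other holds 4 genes that share the MFAP symbol. By edgeR's test at the same adjusted p, 15 rose and 15 fell in *Hint1*-/- MASMCs, which is 55.6% of those tested against 21.5% of all genes, and 6 also passed the fold limit. Without the MFAP group, 28 of 50 tested genes passed (56.0%), with 14 in each direction. The median log2 fold change of the 54 genes was 0.02. Of the 30 calls, 24 held in all of 16 other settings, and the 6 that did not are named below. The list was drawn up with earlier results of these data known, so nothing particular to it is read from that share.

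Among relatives of the fibulins, 1 of 4 tested genes changed. *Efemp1*, which encodes fibulin-3, had 3300, 3209, 3420 and 3429 counts in WT and 5560, 5477, 5010 and 5533 counts in *Hint1*-/- samples. The samples of the genotypes were far apart, at 160 ± 5.28 CPM in WT and 260 ± 12.9 CPM in the *Hint1*-/- group, and *Efemp1* rose by 0.70 on the log2 scale (SE 0.0386, adjusted p = 1.70e-10). *Efemp1* also lies on chromosome 11, at 25.9 Mb from *Hint1*. Of 7 tested genes for cross-linking, *Lox* and *Loxl2* were higher, *Loxl3* was lower, and 4 did not pass the test. *Lox*, the main lysyl oxidase of the aorta, rose by 0.29 on the log2 scale, from 2399 ± 62.3 CPM to 2931 ± 116 CPM (adjusted p = 6.73e-06). *Loxl1*, the lysyl oxidase that fibulin-5 tethers to elastic fibers, had a log2 fold change of −0.08 (adjusted p = 0.187).

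Of the 4 genes named for latent TGF-β binding proteins, *Ltbp2* rose by 0.33 on the log2 scale (adjusted p = 3.91e-06). *Ltbp4* was lower at −0.20 (adjusted p = 0.0342, lost in 5 of 16 other settings), and *Ltbp1* and *Ltbp3* did not pass the test. None of the 3 TGF-β ligand genes passed it, with adjusted p values of 0.0589 for *Tgfb1*, 0.854 for *Tgfb2* and 0.142 for *Tgfb3*. *Tgfb1* did pass in some of the other settings, which are named below. Emilins are glycoproteins at the interface of elastin and microfibrils, and of the 2 tested, *Emilin1* was higher with a log2 fold change of 0.11 (adjusted p = 0.0403, lost in 8 of 16 other settings) and *Emilin2* was lower at −0.23 (adjusted p = 9.16e-05). Of 6 tested microfibril-binding ADAMTS and ADAMTS-like genes, *Adamtsl3* was higher at 0.27 (adjusted p = 0.00147), *Adamtsl4* was lower at −0.21 (adjusted p = 0.00194), and 4 did not pass the test. Among 4 proteoglycan genes and *Mfge8*, *Dcn*, whose product decorin binds fibrillin and collagen, rose from 1111 ± 42.3 CPM to 1974 ± 61.4 CPM, or by 0.83 on the log2 scale (adjusted p = 4.36e-12). *Vcan* was higher and *Bgn*, whose call was lost in 5 of 16 other settings, was lower in the same group, while *Hspg2* and *Mfge8* did not pass the test. *Dcn* is also a member of the fibroblast marker list.

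Proteases able to cut elastin or its scaffold moved in both directions. Of 8 tested, 5 were lower, namely *Mmp9*, *Mmp14*, *Ctsb*, *Ctsk* and *Ctss*, 2 were higher, *Mmp2* and *Mmp12*, and *Ctsl* did not pass the test (adjusted p = 0.0938). *Mmp12*, the macrophage elastase, had 66, 130, 204 and 171 counts in WT and 256, 322, 292 and 295 counts in *Hint1*-/- samples, or 1.04 higher on the log2 scale (SE 0.180, adjusted p = 0.00033). *Mmp9*, a gelatinase, had 143, 126, 133 and 124 counts in WT and 67, 93, 69 and 80 counts in *Hint1*-/- samples, and its log2 fold change was −0.76 with an SE of 0.116 (adjusted p = 9.20e-05). The genotypes did not overlap for either gene. Macrophage markers moved with the genotype as given above, and *Cd68* among them fell by 0.44 on the log2 scale. Of the 4 tested inhibitors, *Timp1* and *Timp3* were higher, the call for *Timp3* being lost in 5 of 16 other settings, *Timp2* was lower at −0.17 (adjusted p = 0.000768), and *Cst3* did not pass the test.

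RGD-recognizing integrins bind fibrillin-1, MAGP-2, MFAP4 and fibulin-5. Of 7 tested subunit genes, *Itgav* and *Itgb8* were higher, *Itgb3*, *Itga5* and *Itga8* were lower, and *Itgb1* and *Itgb5* did not pass the test. *Itga8* had 90, 85, 89 and 101 counts in WT and 37, 47, 29 and 47 counts in *Hint1*-/- samples, a log2 fold change of −1.18 (adjusted p = 1.24e-05). *Itgb8* had 51, 53, 47 and 47 counts in WT and 77, 91, 69 and 97 counts in *Hint1*-/- samples, a log2 fold change of 0.76 (adjusted p = 0.000539). The study's own RNA-Seq analysis had picked *Itga8* and *Itgb8* from the pathways enriched among its changed genes. Its later q-PCR in MASMCs under PDGF-BB showed no effect of *Hint1* loss on either gene. The cause of that difference between methods was not tested. These 2 subunits had fewer than 5 CPM in each genotype, whereas *Itgav*, the partner of *Itgb3*, *Itgb5* and *Itgb8*, averaged 231 CPM in WT samples and rose by 0.17 on the log2 scale (adjusted p = 0.00253). Of the 4 other genes with an MFAP symbol, *Mfap1b* was higher, a call lost in 4 of 16 other settings, and *Mfap3l* was lower at −0.22 (adjusted p = 0.0129, or 0.0573 under DESeq2). *Mfap1a* and *Mfap1b* are near-identical copies, so their reads may have been divided between them.

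**Figure D3:**
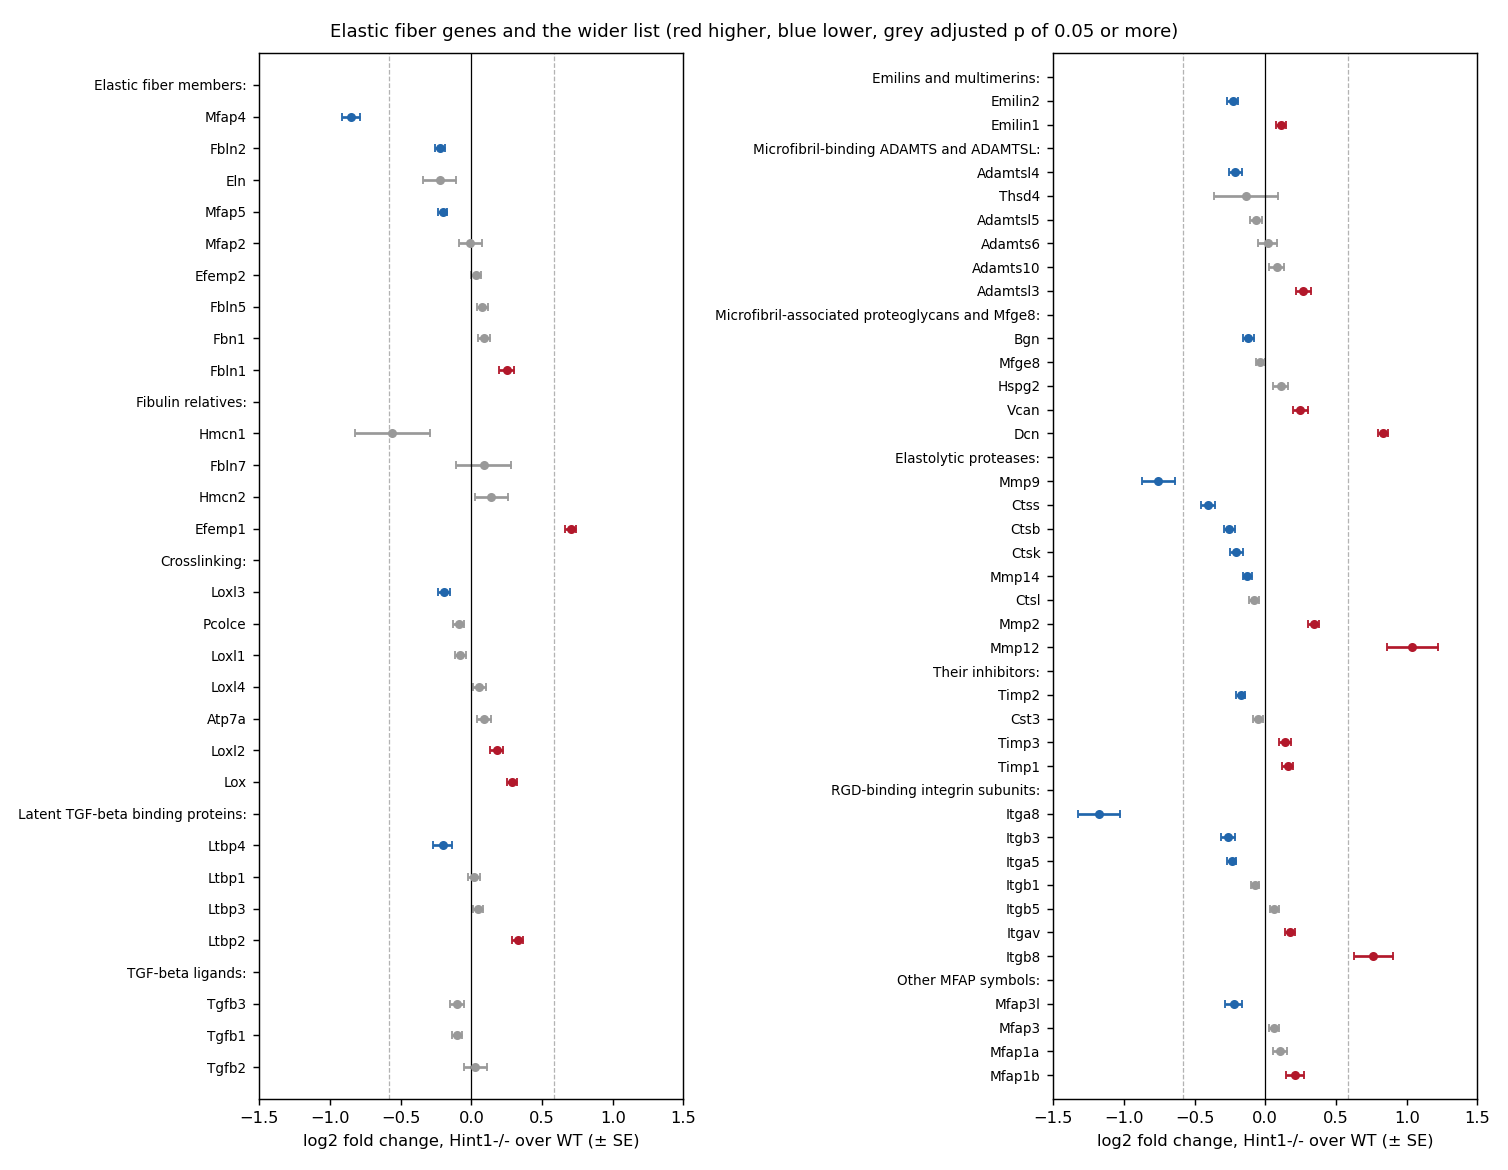
Log2 fold change of *Hint1*-/- over WT with its SE (x axis) for the 9 tested elastic fiber genes and for the 54 tested genes of the wider list by group. Red marks genes higher and blue genes lower at an adjusted p under 0.05, grey marks the rest, and dashed lines mark the fold limit of 1.5, which *Mfap4* alone of the elastic fiber genes passed, at −0.85.

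The calls for the elastic fiber genes were compared over 16 other settings of normalization, filter, test and samples. *Mfap4* lay between −0.90 and −0.80, *Mfap5* between −0.22 and −0.19, *Fbln2* between −0.24 and −0.21 and *Fbln1* between 0.20 and 0.28 on the log2 scale, and each of these 4 passed an adjusted p of 0.05 in all 16. *Fbln5* and *Efemp2* stayed at or above an adjusted p of 0.072 and 0.306 in every setting. *Eln* ranged from −0.33 to −0.09 and passed in 1 setting, *Fbn1* ranged from 0.05 to 0.13 and passed in 1 setting, and *Mfap2* lay on both sides of 0, between −0.08 and 0.07.

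**Figure D4:**
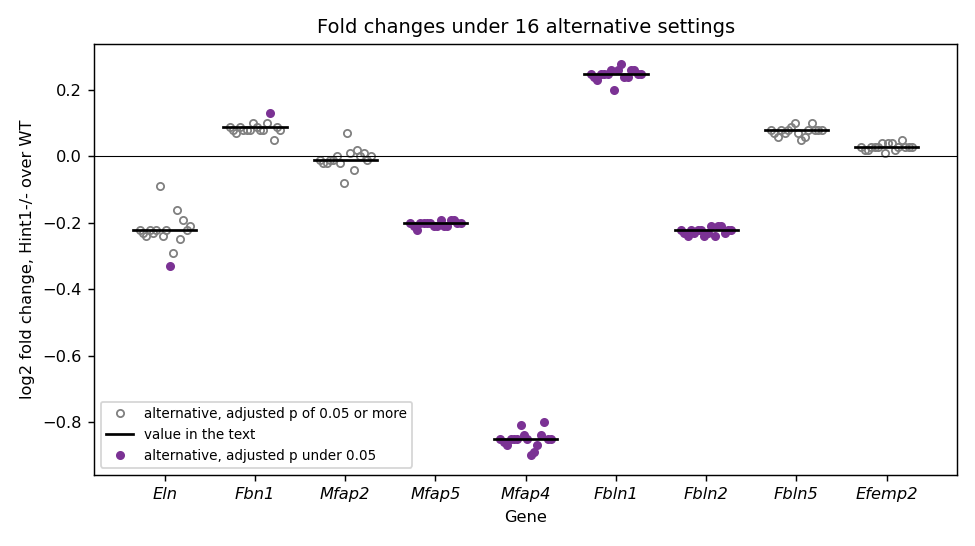
Log2 fold change of *Hint1*-/- over WT (y axis) for each tested elastic fiber gene under 16 other settings, with the value in the text as a line. Filled points, with an adjusted p under 0.05, appear for *Mfap4*, *Mfap5*, *Fbln2* and *Fbln1* in all settings and for *Eln* and *Fbn1* in 1 setting each.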

How the data were processed

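RNA of 4 WT and 4 *Hint1*-/- MASMC samples, all treated with PDGF-BB, was sequenced by the authors on a BGISEQ-500 with reads of 50 bases. The methods of the study name HISAT2 and mm10, whereas the submitters' processing notes list Bowtie2, RSEM 1.3.1, DESeq2 1.4.5 and mm10 without their roles. The authors deposited an estimated count per gene symbol and sample, without normalization, of which 67.3% to 67.8% per sample were exactly whole, zeros included, or 63.1% to 63.8% of the values above 0. The methods give the source as the thoracic aorta in one place and the whole aorta, stripped of adventitia and endothelium, in another. Samples were grouped by genotype as labelled.

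Counts were rounded to whole numbers, filtered with filterByExpr, normalized by TMM (factors 0.993 to 1.01) and compared with glmQLFit and glmQLFTest of edgeR 4.0.16 in R 4.3.3, two-sided, with genotype as the only term and Benjamini-Hochberg adjustment over 13535 genes. A gene was called at an adjusted p under 0.05, and separately at that p with a fold over 1.5. The SE is the log2 fold change divided by the square root of F, and 95% intervals assume normal errors. CPM were scaled by TMM, and log2 CPM used a prior count of 2. Totals of 20778077 to 20888041 limit precision chiefly for genes with few counts. In simulated data for this comparison, 200 of 13456 genes were changed by a fold of 2, all with a mean of at least 50 counts. At both thresholds together, edgeR recovered 100% of them and made 4 false calls. Smaller changes and calls by the adjusted p alone were not simulated, so these values do not cover them. Alternatives used DESeq2 1.42.0 and limma 3.58.1 (voom), other normalizations and filters, the replicate number as a block, and each sample left out. Positions and transcript lengths came from GENCODE M21 and promoter windows from RefSeq, with Python 3.11.15. The members, the wider list and the marker lists were chosen with earlier results of these data known. All 10 members were named, and from each other list the genes past both thresholds or, where there were none, the gene with the largest change at an adjusted p under 0.05. Further genes were named after their values were seen, and 1 marker gene is not reported here and was left out of its list. Promoter windows were found for 6 of the 10 members, not for *Eln*, *Fbn2*, *Mfap4* and *Mfap5*. Windows on chromosome 18, which holds *Fbn2*, were left out of the search.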

Additional observations from a re-analysis of the deposited data

Results flagged for a closer look

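In each genotype, the sample farthest from the rest was compared with the range of the 4 samples by Dixon's ratio at its 95% critical value. Of 100 groups of 4 samples examined, 4 exceeded it, and chance gives about 1 in 20, or 5. None of the 10 elastic fiber genes was among them. *Efemp1* was set apart by *Hint1*-/- replicate 3, whose 5010 counts lay below 5477 to 5560 in the others (ratio 0.879). *Lox* was set apart by WT replicate 2, the highest WT sample with 52333 counts (ratio 0.968). Among cell type markers, *Myh6* in *Hint1*-/- replicate 4 (ratio 0.876) and *Comp* in WT replicate 3 (ratio 0.850) were below the other samples of their genotype. For *Efemp1* and *Lox*, the genotypes stayed apart with the sample included.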

How the results depend on the processing

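The number of elastic fiber genes past an adjusted p of 0.05 was 4 in each setting, except for 5 without WT replicate 4, which added *Eln*, and 5 without *Hint1*-/- replicate 3, which added *Fbn1*. The number past both thresholds was 1 throughout, also with a fold limit of 1.2. Across all genes, 383 passed both thresholds, 350 to 390 with a sample left out, 108 under glmTreat and 2907 without a limit on the fold change. In the wider list, 25 to 30 genes passed with a sample left out and 25 to 32 over all settings. Some calls were gained. *Tgfb1* passed by upper-quartile scaling, by library sizes without the 20 most abundant genes and with at least 10 counts in every sample. It also passed without WT replicate 2 or *Hint1*-/- replicate 3. *Ctsl* was gained with those library sizes and without WT replicate 2, and *Itgb1* with those library sizes and by DESeq2. *Pcolce* was gained without *Hint1*-/- replicate 1 and *Hspg2* without *Hint1*-/- replicate 3. Calls lost in some settings were *Emilin1* (adjusted p up to 0.108, without WT replicate 2, 3 or 4 or *Hint1*-/- replicate 1, 3 or 4, by upper-quartile scaling and by library sizes without the 20 most abundant genes), *Ltbp4* (up to 0.125, without WT replicate 1 or 3 or *Hint1*-/- replicate 2 or 4, and by DESeq2), *Bgn* (up to 0.104, without WT replicate 1 or 2 or *Hint1*-/- replicate 2, 3 or 4), *Timp3* (up to 0.0827, without WT replicate 3 or 4 or *Hint1*-/- replicate 1, 2 or 4), *Mfap1b* (up to 0.0873, without WT replicate 3 or 4 or *Hint1*-/- replicate 2 or 4) and *Mfap3l* (0.0573 by DESeq2). The log2 fold change of *Mfap2* lay between −0.08 and 0.07 with a sample left out. It changed sign when WT replicate 3 or 4 or *Hint1*-/- replicate 2 or 4 was left out, and came to 0.00 under limma-voom, and the cause was not tested. Replicates of the genotypes share numbers, but deviations of same-numbered samples correlated at 0.183, 0.136, −0.0492 and 0.0630, so they were not treated as pairs. WT replicates 1, 2 and 4 correlated best with their own number, and WT replicate 3 with *Hint1*-/- replicate 1 (0.198). Seen from the *Hint1*-/- samples, only replicate 2 correlated best with its own number. With the replicate block, 382 genes passed both thresholds, with 4 and 1 elastic fiber genes and 30 of the wider list. Under that block, edgeR's adjusted p for *Eln* was 0.0567, at a log2 fold change of −0.22. With the 20 most abundant genes, *Fbln2* among them, taken out of the total only, the members' share was 0.645% in WT and 0.588% in *Hint1*-/- samples. Over the union of annotated exons, which is longer, levels in WT and *Hint1*-/- samples were 559 and 479 CPM per kb for *Fbln2*, 124 and 127 for *Efemp2*, 66.5 and 57.8 for *Mfap5*, 70.0 and 73.9 for *Fbln5*, 6.76 and 8.04 for *Fbln1* and 1.62 and 1.39 for *Eln*. In *Hint1*-/- samples, *Mfap2* stood at 10.1 and *Fbn2* at 0.0164 CPM per kb by that length, and *Mfap5* took the fifth place in both genotypes. Depth limits *Fbn2* most, with 3 to 8 counts per sample.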

Other observations

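The genes whose level followed that of *Eln* most closely over the 8 samples were *U2af1*, a splicing factor subunit (Pearson r = 0.953 of log2 CPM), *Tap2*, a peptide transporter of antigen presentation (r = 0.940), and *Chtf18*, a replication factor (r = 0.938), out of 11766 genes whose mean count reached 50. These values describe 8 samples that share the spread of *Eln* between replicates, and none of the 3 genes passed edgeR's test between the genotypes. The next gene past *Mfap4* to pass that test on chromosome 11 among its nearest neighbors was *Grap*, an adaptor protein of receptor signaling, with a log2 fold change of −0.26 (adjusted p = 0.0285). *B9d1* and *Epn2*, which lie between *Mfap4* and *Grap*, had log2 fold changes of 0.09 (adjusted p = 0.606) and 0.08 (adjusted p = 0.265).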
